A study of Rattus norvegicus with 23 samples.

Results

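The glycolytic route from glucose to lactate was followed through 9 genes of the rat area postrema, a small sensory organ at the floor of the brain's lowest ventricle whose capillaries lack a tight blood-brain barrier. The genes were the glucose transporter Slc2a1, the enzymes Hk1, Pfkp, Aldoa, Tpi1, Pgk1 and Eno1, and both lactate dehydrogenase subunits, Ldha and Ldhb. Every probe set whose only symbol in the platform annotation was one of these names was taken, which gave 15 of the 31099 probe sets on the Rat 230 2.0 expression array. Hk1 had 5 probe sets, of which 3 are Affymetrix control probe sets for hexokinase, Pgk1 had 3, and the other 7 genes had 1 each.

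Area postrema from male rats was hybridised to 23 arrays in 5 groups, and each array held the pooled tissue of 5 animals. SHR, an inbred rat with inherited high blood pressure, and WKY, its normotensive counterpart, were 10 to 13 weeks old, had no treatment named in the labels, and had 5 arrays each. Sprague Dawley rats were 10 to 12 weeks old, and their groups were untreated controls (4 arrays), animals fasted for 48 h (5 arrays) and animals dehydrated for 72 h (4 arrays). The arrays of the inbred strains and those of Sprague Dawley rats differ in strain and in the wording of their protocols together, so no test was made across these 2 sets. Each pool was an independent biological replicate by the study's design text, so the spread between arrays is that between pools and hides the spread between animals.

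Glycolysis splits glucose in the cytosol and yields ATP, NADH and pyruvate. Lactate dehydrogenase turns pyruvate and NADH into lactate and NAD, or back, as a tetramer of A subunits (encoded by Ldha) and B subunits (encoded by Ldhb). In brain the A subunit is linked with lactate production in astrocytes and the B subunit with lactate use in neurons. Area postrema neurons are known to sense circulating glucose and to relay signals on feeding and fluid balance.

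Ldha was the only one of the 9 genes with a called difference, and its promoter is set beside that of Ldhb to show how the sequences next to these paired genes differ. The windows hold the 250 bases before the annotated start of each gene, from RefSeq on the GRCr8 assembly. Capitals mark ACGTG or GCGTG on either strand, the core letters of the hypoxia response element, and a CACGTG (E-box) contains 2 overlapping matches to that core. The Ldha window is chr1:106507842-106508091 on the plus strand and the Ldhb window is chr4:177177409-177177658 on the minus strand.
Ldha: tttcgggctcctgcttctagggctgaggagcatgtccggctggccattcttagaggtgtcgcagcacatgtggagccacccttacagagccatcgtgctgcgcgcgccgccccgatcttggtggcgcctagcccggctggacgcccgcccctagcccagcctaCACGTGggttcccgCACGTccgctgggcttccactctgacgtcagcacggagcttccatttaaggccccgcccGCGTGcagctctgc
Ldhb: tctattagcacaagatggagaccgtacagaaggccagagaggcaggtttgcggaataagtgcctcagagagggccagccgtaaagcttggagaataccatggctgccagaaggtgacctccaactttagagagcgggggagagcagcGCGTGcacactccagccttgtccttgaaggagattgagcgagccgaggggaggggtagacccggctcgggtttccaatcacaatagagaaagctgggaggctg
The Ldha window held 4 matches, of which 2 lie in 1 CACGTG that begins 87 bases before the start, and the Ldhb window held 1 match. The Ldha window also held TGACGTCA, the palindrome of the cAMP response element, which begins 51 bases before the start and is left in lower case. Of 33469 promoter windows of the same length, 36.7% held ACGTG or GCGTG at least once, 6.21% held it 3 or more times, 5.59% held CACGTG and 1.59% held TGACGTCA. Of the 8 member genes with a window in the table, Slc2a1 also had 4 matches to ACGTG or GCGTG and Pfkp had 1. Both Eno1 windows, 1 of the 2 Hk1 windows and 1 of the 3 Aldoa windows had 1 match each. The Tpi1 window had 0. These are matches of letters and show no binding.

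Of 9 listed markers of area postrema neurons, 8 were measured on single-symbol probe sets. All 8 passed the filter on low signal, which uses the mean over arrays and does not show detection on each array. Among them Cartpt, a neuropeptide precursor, had signals of 1369 to 2646, Th, the tyrosine hydroxylase of catecholamine neurons, 246.1 to 428.2, and Calcr, the calcitonin receptor subunit that amylin uses, 95.6 to 166.0. Glp1r (19.5 to 49.3) and Avpr1a (24.3 to 52.7) were dim, beside array medians of 39.81 to 44.48. Ttr, the transthyretin gene of choroid plexus, ranged from 44.2 to 7953 over the arrays. The arrays correlated with each other at 0.9635 to 0.9848 on log2 values, and 0 pairs were identical. Signals are the authors' array-scaled intensities on a linear scale, and differences are on the scale log2(signal + 16), fitted with limma over 18625 probe sets with Benjamini-Hochberg adjustment. A difference was called at an adjusted p under 0.05.

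Glucose entry was read from 1 probe set of Slc2a1, the GLUT1 transporter of brain endothelium and astrocytes. In SHR its signal was 126.0, 127.0, 166.8, 127.5 and 132.7 on the 5 arrays, and in WKY it was 179.9, 137.4, 148.9, 162.8 and 142.4. The groups overlapped, and the difference of -0.17 (SE 0.0889) did not pass limma's test (adjusted p = 0.372). Controls gave 124.1, 191.4, 182.6 and 174.8, fasted animals 136.9 to 168.1 (mean 146.7 ± 12.3, SD, n = 5) and dehydrated animals 212.0, 129.7, 162.6 and 136.9. The single low control array and the single high dehydrated array made the groups broad, and the intervals of the differences ran from -0.43 to 0.10 for fasted minus control and from -0.35 to 0.21 for dehydrated minus control. Differences anywhere within these intervals are compatible with the arrays.

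Hk1, the hexokinase that traps glucose in brain cells by phosphorylation, was measured well on 1 probe set (1386929_at). Its mean signal was 154.7 ± 32.2 in SHR, 152.3 ± 12.1 in WKY, 160.0 ± 27.2 in controls, 169.4 ± 35.9 in fasted and 181.6 ± 3.7 in dehydrated animals. Dehydrated arrays lay closely together between 176.8 and 185.4, at the upper end of the controls (122.4 to 182.5) and overlapping them. The difference of 0.18 (SE 0.126) did not pass limma's test (adjusted p = 0.595), and no other contrast of this probe set exceeded 0.11. A dim Hk1 probe set (1398725_at, 12.7 to 42.8) gave the opposite sign in the Sprague Dawley animals, -0.26 for fasted and -0.32 for dehydrated minus control (limma adjusted p = 0.782 and 0.502). It fell below the filter in the comparison of strains. The 3 hexokinase control probe sets had signals between 0.6 and 31.4 and were not tested.

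Pfkp, the platelet-type phosphofructokinase subunit of the pathway's committed step, had the largest SHR minus WKY difference in size among the 10 member probe sets tested there. The SHR arrays read 521.7, 513.5, 600.2, 488.3 and 576.4, and the WKY arrays 444.5, 464.6, 526.6, 460.9 and 477.4. The higher SHR mean (540.0 ± 46.5 against 474.8 ± 31.2, SD) came with overlapping groups: the highest WKY array exceeded 3 SHR arrays. The difference of 0.18 (SE 0.0666) had an unadjusted p of 0.0159 and did not pass limma's test over all probe sets (adjusted p = 0.159). Among Sprague Dawley groups the means were 575.5 ± 47.9 in controls, 578.8 ± 15.3 in fasted and 574.1 ± 82.7 in dehydrated animals, and these differed by less than the spread between arrays.

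The middle enzymes had narrow spreads. Aldoa, the aldolase that splits fructose bisphosphate, averaged 2982 ± 188.0 in SHR, 3029 ± 175.4 in WKY, 3505 ± 251.1 in controls, 3532 ± 205.3 in fasted and 3387 ± 112.8 in dehydrated animals. Its largest tested difference was -0.059 (SE 0.0634), for dehydrated minus fasted. Tpi1, the isomerase that interconverts the triose phosphates made by aldolase, read 1598 to 1674 in SHR and 1527 to 1694 in WKY, and 2016 to 2240 in controls, 1939 to 2424 in fasted and 2029 to 2167 in dehydrated animals. Its 95% intervals lay within -0.20 to 0.14 in all 4 comparisons. Ordered by group mean, the only neighbouring groups whose arrays did not overlap were dehydrated over SHR for Tpi1 and fasted over SHR for 1 Pgk1 probe set, and both pairs cross the 2 sets of arrays that differ in strain and protocol text.

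Pgk1, the kinase of the first ATP-yielding step, had 2 bright probe sets that gave similar values. On 1388318_at the means were 2672 ± 179.4 in SHR, 2756 ± 146.3 in WKY, 3160 ± 474.1 in controls, 2954 ± 235.2 in fasted and 3064 ± 234.9 in dehydrated animals, and on 1387361_s_at they were 1268 ± 61.5, 1262 ± 65.4, 1550 ± 163.1, 1478 ± 81.9 and 1485 ± 42.1 in the same order. No difference of either probe set exceeded 0.088 in size. The third probe set (1368906_at) read 0.1 to 9.7 and was too dim to test. Eno1, the enolase found in most cells, read 3529, 3486, 3417 and 3694 in controls and 3094, 3062, 3329 and 3299 in dehydrated animals. All dehydrated arrays lay below all controls, but the difference of -0.14 (SE 0.0846) did not pass limma's test (adjusted p = 0.522). Fasted arrays spanned 2868 to 4075 around both groups.

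**Figure D1:**
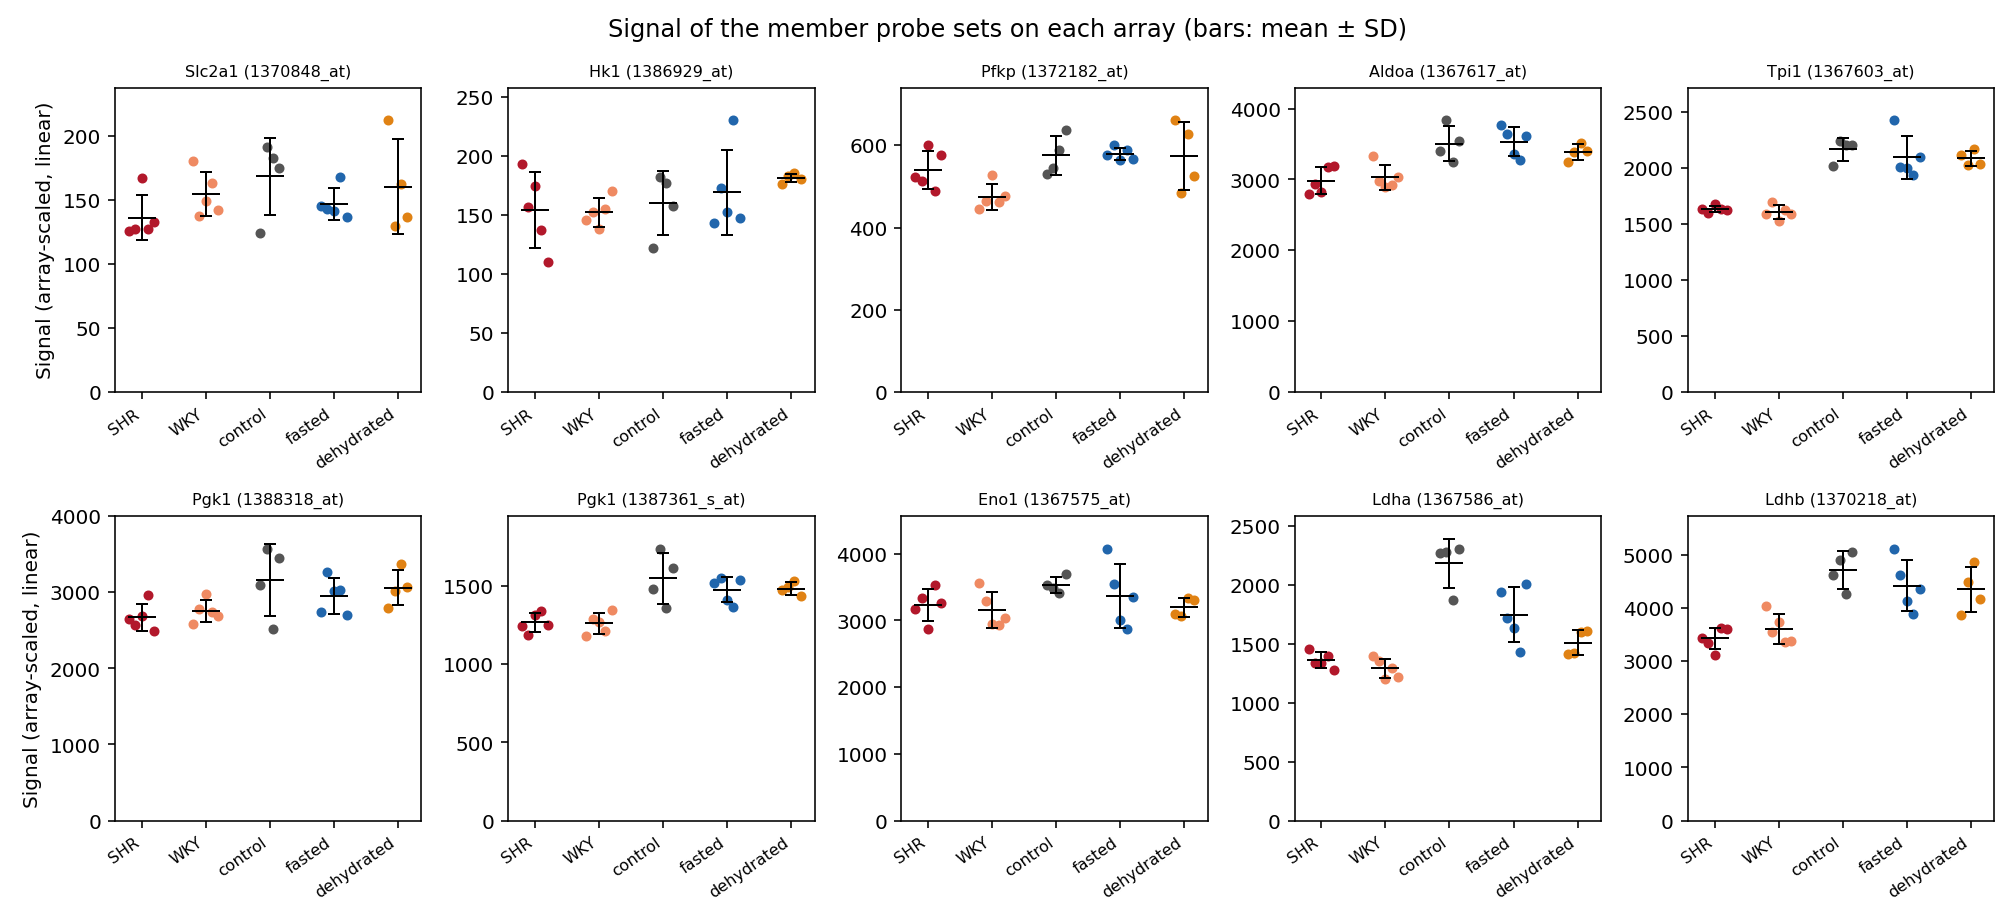
Signal (vertical axis, linear array-scaled intensity, from 0) on each array for 10 probe sets of the 9 genes, by group (horizontal axis); points are arrays and bars are the mean ± SD. The Ldha controls, at 1872 to 2306, lie above the 4 dehydrated arrays at 1414 to 1611, while most other panels show overlapping Sprague Dawley groups.

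At the lactate step, Ldha fell in dehydrated animals. The control arrays read 2273, 2280, 1872 and 2306 (mean 2183 ± 207.6), and the dehydrated arrays read 1414, 1420, 1596 and 1611 (1510 ± 108.2). Every dehydrated array was below every control array, including control array 3, the lowest. The fitted difference was -0.52 (SE 0.0947, 95% interval -0.72 to -0.33), a 1.44-fold lower level, and it passed limma's test (adjusted p = 0.0205). In whole tissue, fewer cells of a type and less RNA per cell cannot be told apart.

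Fasted arrays took an intermediate place for Ldha at 1940, 1718, 1637, 1434 and 2009 (1748 ± 232.9). They overlapped both other groups: 2 exceeded the lowest control and 1 lay within the dehydrated range. The difference from controls was -0.32 (SE 0.0898) with an unadjusted p of 0.00175 that did not pass over all probe sets (limma adjusted p = 0.405), and dehydrated minus fasted was -0.20 (SE 0.0898, limma adjusted p = 0.461). The fasted and dehydrated differences share the same 4 control arrays. SHR arrays read 1452, 1336, 1339, 1394 and 1275 and WKY arrays 1393, 1350, 1200, 1290 and 1217, a difference of 0.075 (SE 0.0559, limma adjusted p = 0.551).

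The Ldha call in dehydrated animals lies near the threshold. It passed in 15 of 25 alternative fits, and the difference was negative in all 25 (-0.60 to -0.27). Leaving out control array 1, 2 or 4, or dehydrated array 1 or 2, raised limma's adjusted p to 0.0747, 0.0939, 0.114, 0.0827 and 0.107. With only control arrays 3 and 4, whose protocol wording equals that of the treated arrays, the difference was -0.46 (limma adjusted p = 0.25).

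Across the 3 Sprague Dawley groups, the mean of markers of fibroblasts and meninges had the same order as Ldha. This order was not particular to them. Microglia markers averaged 7.08 ± 0.07 in controls, 7.04 ± 0.09 in fasted and 6.93 ± 0.17 in dehydrated animals. Area postrema markers averaged 7.63 ± 0.08, 7.58 ± 0.11 and 7.57 ± 0.12, and neither list was used as a covariate. Of 7 fibroblast and meningeal markers, 6 were lower in dehydrated than in control animals and 0 passed the test. Their mean log2 signal was 8.90 ± 0.12 in controls, 8.71 ± 0.08 in fasted and 8.64 ± 0.11 in dehydrated animals. Their summed signal was 3898 to 4976 in controls, 3731 to 4313 in fasted and 3274 to 4329 in dehydrated animals. Between the strains the order was not shared. The marker mean was lower in SHR (8.10 ± 0.17) than in WKY (8.45 ± 0.11), while mean Ldha signal was 1359 in SHR and 1290 in WKY, with overlapping arrays. No marker was at 0: the collagen gene Col1a2, an example chosen after its values were seen, averaged 2030 ± 304.3 in controls and 1517 ± 281.7 in dehydrated animals (-0.42, limma adjusted p = 0.192). With the fibroblast and meningeal marker mean as a covariate, an alternative chosen after seeing the data, the Ldha difference was -0.27 (SE 0.118, limma adjusted p = 0.854). In that fit 0 of all probe sets were called in dehydrated against control animals. With the choroid plexus marker mean in its place the Ldha difference was -0.47 (limma adjusted p = 0.0241). As a measure of RNA integrity, the 3' Gapdh control signal over the 5' signal, on the log2 scale, averaged 0.34 in controls and 0.41 in dehydrated animals, and with it as a covariate the difference was -0.51 (limma adjusted p = 0.0399).

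**Figure D2:**
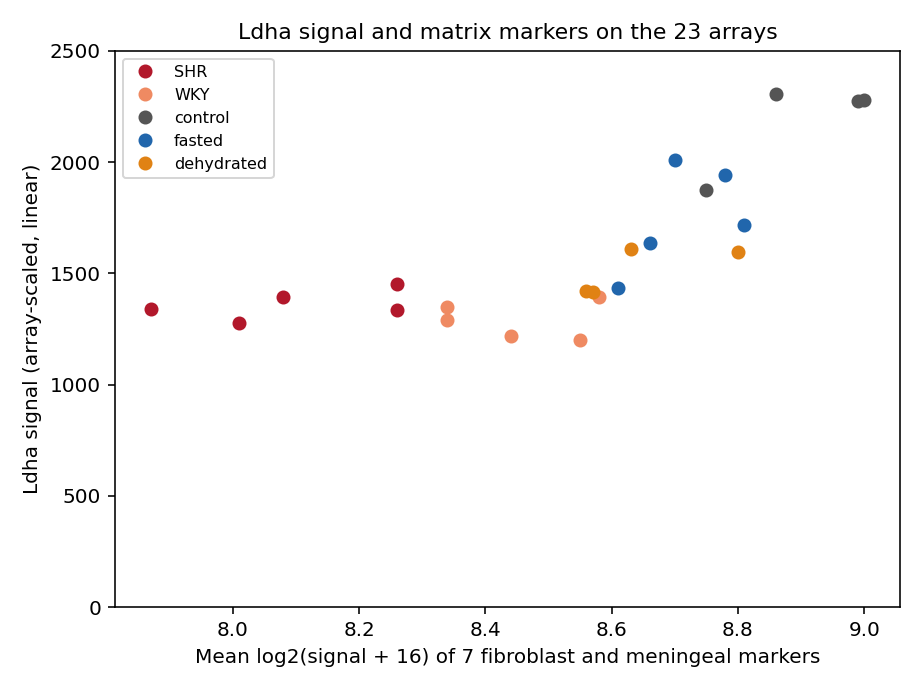
Ldha signal (vertical axis, linear) against the mean log2(signal + 16) of 7 fibroblast and meningeal markers (horizontal axis), 1 point per array, coloured by group. Controls average 8.90 and dehydrated arrays 8.64 on the horizontal axis, and the SHR and WKY arrays reach at most 8.58, next to the lowest dehydrated arrays.

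Ldhb, the B subunit, did not pass in any comparison. Controls read 4623, 4915, 4267 and 5061 (4716 ± 350.5), fasted animals 3880 to 5118 (4424 ± 473.7) and dehydrated animals 3879, 4488, 4877 and 4178 (4356 ± 427.3), with overlap between all 3 groups. Dehydrated minus control was -0.12 (SE 0.0856, 95% interval -0.29 to 0.06, limma adjusted p = 0.615). SHR averaged 3428 ± 205.9 and WKY 3613 ± 280.9, a difference of -0.074 (SE 0.0585, limma adjusted p = 0.583).

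The log2 ratio of Ldha to Ldhb on the same array is described without a test, and its absolute size depends on the 2 probe sets. It was -1.02, -1.10, -1.18 and -1.13 in controls, -1.39, -1.42, -1.33, -1.43 and -1.11 in fasted animals and -1.45, -1.65, -1.60 and -1.37 in dehydrated animals. All dehydrated arrays and 4 of the 5 fasted arrays were below all controls, and the means (-1.11, -1.34 and -1.52) differed from that of controls by -0.23 for fasted and -0.41 for dehydrated animals. Within the pair, then, the A subunit transcript was lower relative to the B subunit in dehydrated than in control animals. The ratio averaged -1.32 ± 0.11 in SHR and -1.47 ± 0.11 in WKY, with overlapping arrays.

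**Figure D3:**
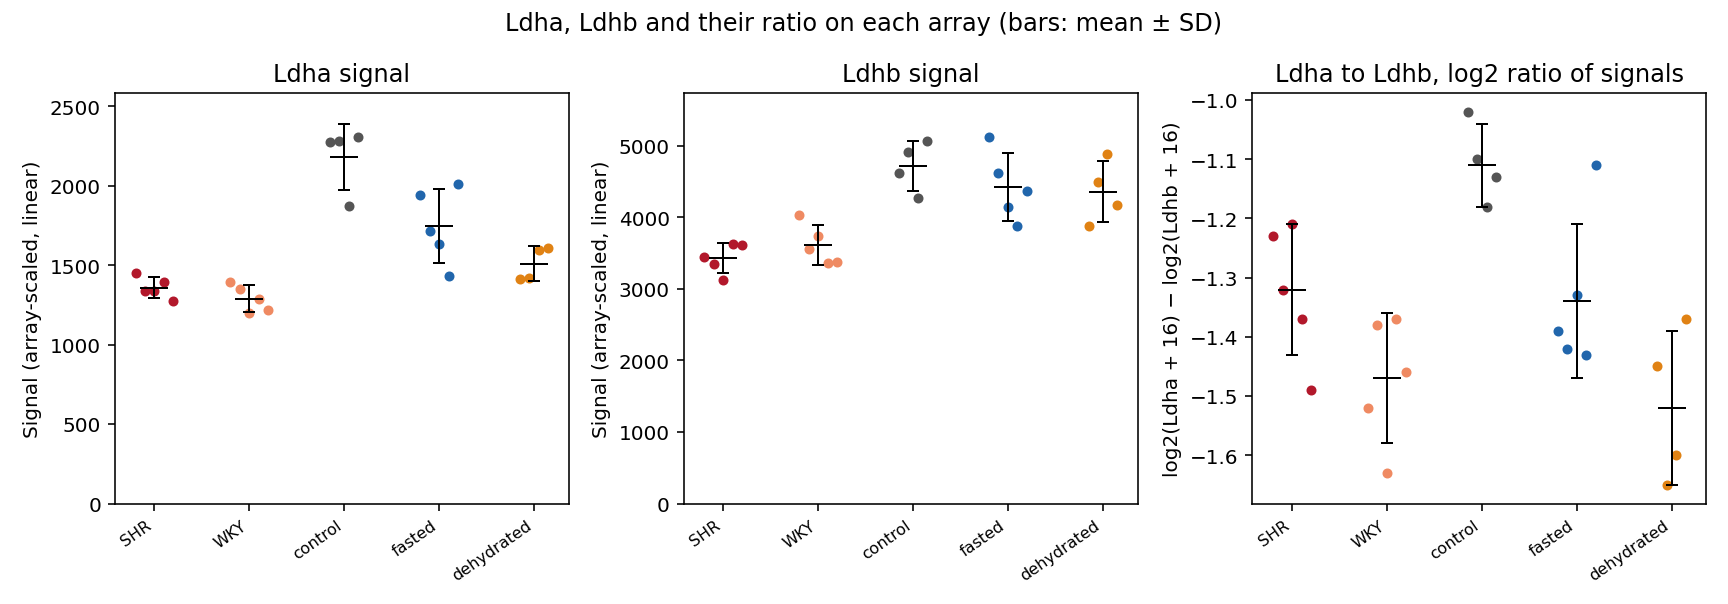
Left and middle: Ldha and Ldhb signal on each array (linear, from 0). Right: log2 ratio of Ldha to Ldhb on the same array; points are arrays and bars the mean ± SD, and the dehydrated arrays (-1.65 to -1.37) lie below the controls (-1.18 to -1.02).

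Counted together, 1 of the 11 member probe sets tested was called in dehydrated against control animals, where 0.166% of all 18625 probe sets were called (and 11.7% had an unadjusted p under 0.05). None of the members was called in SHR against WKY (0 of 10 tested by limma, 1 at an unadjusted p under 0.05, against a background of 5.06% called), in fasted against control animals (0 of 11, 1 unadjusted, background 0.0215%) or in dehydrated against fasted animals (0 of 11, 1 unadjusted, background 0.0322%). The background share with an unadjusted p under 0.05 was 17.2%, 7.19% and 10% in these 3 comparisons. Groups did not overlap for 2 of 11 members, Ldha and Eno1, in dehydrated against control animals, where 6.68% of all probe sets did not overlap, and for 0 members in the others (background 6.33%, 2.32% and 3.23%). The median member difference was -0.055 for dehydrated minus control (all probe sets -0.0095), -0.079 for fasted minus control (0.0031), -0.021 for dehydrated minus fasted (-0.0088) and 0.0043 for SHR minus WKY (0.0051). Signs were negative for 10 of 11 members in dehydrated against control animals (52.4% of all probe sets), 8 of 11 in fasted against control animals (49%), 7 of 11 in dehydrated against fasted animals (52.7%) and 4 of 10 in SHR against WKY (48.3%).

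**Figure D4:**
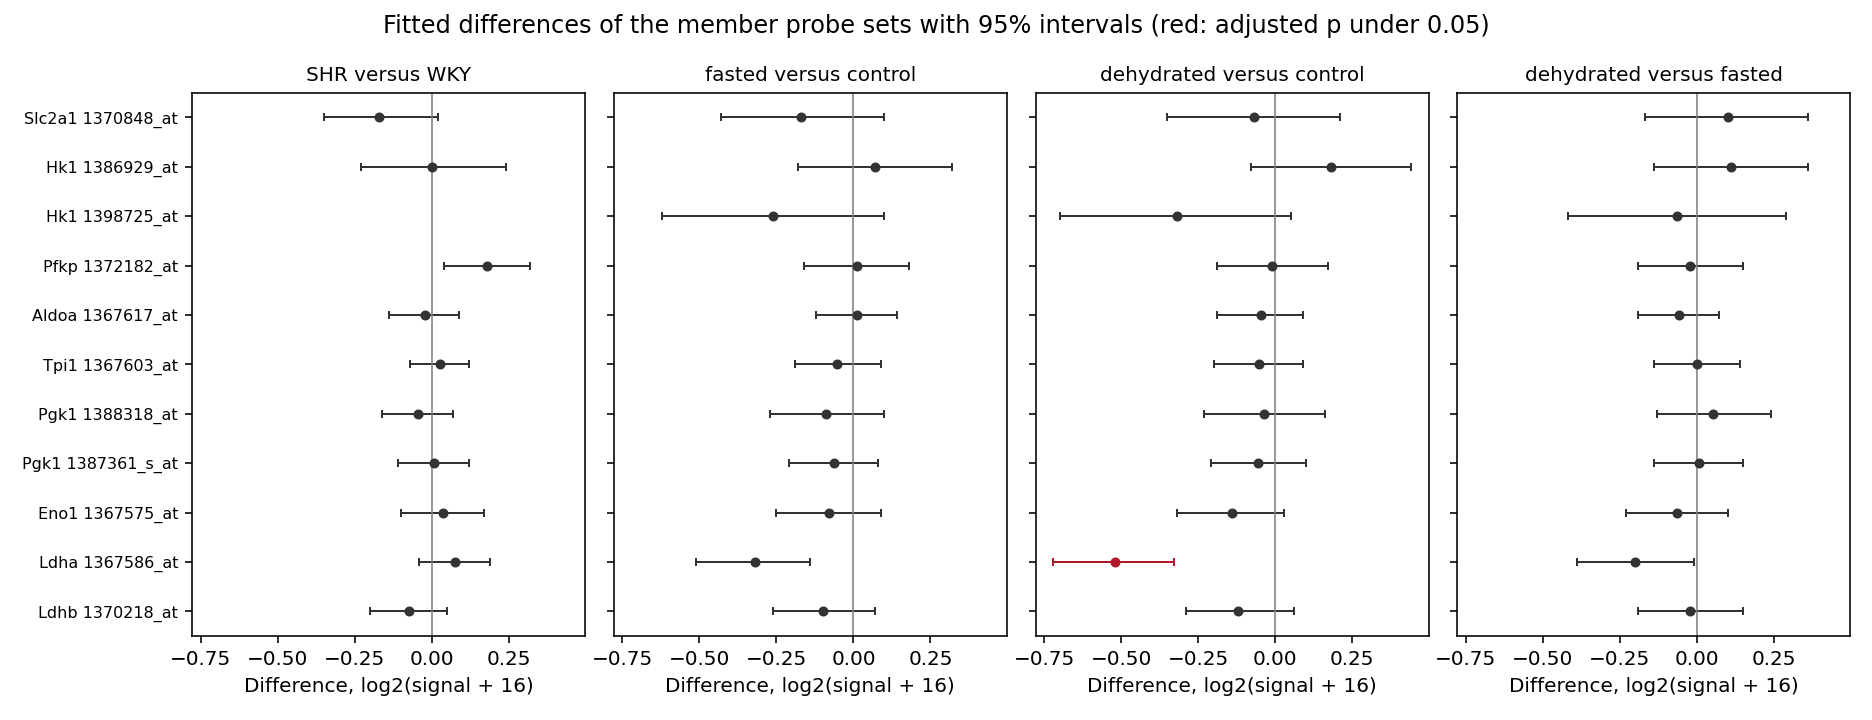
Fitted differences in log2(signal + 16) (horizontal axis) with unadjusted 95% intervals for 11 member probe sets (vertical axis) in 4 comparisons; red marks the call. Ldha in dehydrated against control animals, at -0.52, is the only one in red.

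The rest of the pathway, read by the brightest probe set of each gene, gave 0 calls in any of the 3 Sprague Dawley comparisons. Among the other glycolytic enzymes 12 of 18 measured genes were bright enough to test there, and their median difference for dehydrated minus control was -0.058. Gpi, the isomerase after hexokinase, was 1330 ± 63.5 in controls and 1180 ± 19.3 in dehydrated animals without overlap (-0.17, limma adjusted p = 0.301). Pgam1, the mutase before enolase, differed by -0.058 (limma adjusted p = 0.757). Aldoc, the astrocyte aldolase, averaged 4100 ± 178.5 in controls, 3420 ± 438.8 in fasted and 3691 ± 199.8 in dehydrated animals (-0.27 and -0.15 against control, limma adjusted p = 0.431 and 0.485). Eno2, the neuronal enolase, had the opposite sign to Eno1 at 0.13 in fasted and 0.10 in dehydrated animals (limma adjusted p = 0.703 and 0.593).

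Other parts of the pathway were limited by the probe sets. Hk2, the inducible hexokinase, averaged 13.9 in controls and was below the filter. Pkm was on a probe set with several symbols and is not named from it. Gapdh was on Affymetrix control probe sets only, where the 3' probe set averaged 3525 ± 177.4 in controls, 3308 ± 251.1 in fasted and 3168 ± 126.2 in dehydrated animals. These were kept out of the test. Of 10 other sugar transporters measured 5 were tested, and Slc2a3, the neuronal transporter GLUT3, averaged 132.5 ± 16.5 in controls, 147.5 ± 9.9 in fasted and 134.2 ± 12.0 in dehydrated animals (limma adjusted p = 0.761 and 0.962 against control).

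Downstream of pyruvate, 16 genes of lactate and pyruvate handling were tested in the Sprague Dawley animals and 0 passed. Slc16a1, the lactate and ketone transporter MCT1, was 104.9 ± 8.6 in controls, 113.9 ± 14.2 in fasted and 130.8 ± 15.1 in dehydrated animals (dehydrated minus control 0.28, limma adjusted p = 0.31). Pdk4, the kinase that restrains pyruvate dehydrogenase, was 418.5 ± 9.6 in controls, 463.5 ± 37.2 in fasted and 334.7 ± 65.4 in dehydrated animals. Dehydrated minus fasted was -0.47 with no overlap (limma adjusted p = 0.151). Against control, the differences were 0.14 in fasted and -0.33 in dehydrated animals, also with no overlap (limma adjusted p = 0.792 and 0.21). Txnip, an arrestin-like inhibitor of glucose uptake, was 351.0 ± 55.9 in controls, 446.1 ± 49.5 in fasted and 297.6 ± 50.6 in dehydrated animals. Dehydrated minus fasted was -0.57 for Txnip with no overlap (limma adjusted p = 0.118). All 6 pentose phosphate genes tested had negative differences in fasted (median -0.088) and in dehydrated animals (median -0.14) against the same controls, and 0 passed. The hypoxia response list had 9 genes tested and 0 called in each Sprague Dawley comparison. For dehydrated minus control its median was -0.066, with 4 positive and 5 negative differences.

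Between the hypertensive and normotensive strains, 3 of the 66 genes tested on the pathway lists passed, a share of 4.55% beside the 5.06% of all probe sets called. Pygm, the muscle-type glycogen phosphorylase, which in brain is found in astrocytes, averaged 88.0 ± 13.5 in SHR and 191.0 ± 25.4 in WKY without overlap, and it fell by 1.00 on the log2 scale (SE 0.103, limma adjusted p = 6.67e-06). Slc16a1 rose from 112.8 ± 15.2 in WKY to 150.0 ± 13.5 in SHR with overlapping arrays (0.37, SE 0.0894, limma adjusted p = 0.0194). Pdk3, another kinase of pyruvate dehydrogenase, was lower in SHR at 150.4 ± 12.5 against 186.9 ± 14.4 (-0.29, SE 0.0751, limma adjusted p = 0.0336). These were 1 of 11 tested genes of glycogen and glucose release and 2 of 17 of lactate and pyruvate handling. No gene passed among 11 other glycolytic enzymes, 5 sugar transporters, 6 pentose phosphate genes, 10 hypoxia genes and 6 glucose and fasting sensors, where Txnip differed by -0.28 (limma adjusted p = 0.098).

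In the same comparison 3 of 6 tested microglia markers and 3 of 7 fibroblast and meningeal markers fell in SHR, where 5.06% of all probe sets were called in either direction. Microglial summed signal was 1222 to 1703 in SHR and 1719 to 1986 in WKY, and that of fibroblasts and meninges 2204 to 2937 and 3177 to 3921. The mean log2 signal of the fibroblast and meningeal markers was 7.87 to 8.26 in SHR and 8.34 to 8.58 in WKY. These ranges do not overlap, so a fit with that mean as a covariate cannot separate strain from these markers. In that fit the Pygm difference was -0.87 (SE 0.176, limma adjusted p = 0.0216), which was the highest adjusted p of its 25 alternative fits. As a mean over all its probe sets the Pygm difference was smaller, -0.60 (SE 0.0952, limma adjusted p = 0.00114). Under that covariate the difference was 0.43 (SE 0.156, limma adjusted p = 0.388) for Slc16a1, no smaller than without it but with a larger error, and -0.16 (SE 0.126, limma adjusted p = 0.863) for Pdk3. Slc16a1 also missed the threshold without WKY array 2 (0.0577) or 3 (0.0583), and Pdk3 did so in 13 of 25 alternative fits. The part of microglia in these differences was not tested.

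Similarity of pattern was measured across the 23 arrays as Pearson's r of log2 signals. Each value was first centred on the mean of its set, the 10 SHR and WKY arrays or the 13 Sprague Dawley arrays. Differences between the groups of a set therefore remain in r, together with variation between pools. All points share the arrays and their scaling. Ldha varied most like Pxmp2 (r = 0.86), a peroxisomal membrane protein, Olfml3 (0.83), a secreted matrix protein, and Gsta4 (0.83), a glutathione transferase. For Pxmp2 it was 0.92 on the 13 Sprague Dawley arrays and 0.44 on the 10 strain arrays. Ldhb varied most like Atp5f1b (0.88), a subunit of the mitochondrial ATP synthase, and the membrane proteins Itm2b (0.88) and Itm2c (0.87). Slc2a1 varied most like the adhesion molecule Vcam1 (0.85), fibronectin Fn1 (0.80) and the neurotrophin receptor Ntrk2 (0.79).

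For the other members, Pebp1 led for both Aldoa (0.82) and Eno1 (0.84), with Itm2c (0.82) and Atp5f1a (0.81) next for Aldoa and Slc25a3 (0.81) and Cox8a (0.81) next for Eno1. Tpi1 was most like Stoml2 (0.85), Ndufaf3 (0.83) and Fkbp2 (0.82), the last at 0.89 on the Sprague Dawley and 0.48 on the strain arrays. Pgk1 was most like Oxct1 (0.84), Uqcrc2 (0.82) and Tmem33 (0.77), although Oxct1 reached 0.97 on the 13 Sprague Dawley arrays and only 0.20 on the 10 strain arrays. Pfkp was most like Fto (0.75), Tmem117 (0.75) and Slc30a10 (0.74), and Hk1 most like Degs1 (0.69), Apc (0.67) and Klhl18 (0.67). Among the members themselves the closest pairs were Aldoa with Ldhb (0.75), Eno1 with Ldhb (0.75), Aldoa with Eno1 (0.70) and Eno1 with Ldha (0.66). Ldha and Ldhb reached 0.54, and Hk1 ran opposite to Eno1 (-0.48). Of the 27 nearest genes named by this rule, 9 were named again after quantile normalization of the arrays.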

How the data were processed

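Area postrema RNA from 23 pools of male rats was amplified and hybridised to Affymetrix Rat 230 2.0 arrays. The deposited values are intensity per probe set, which the authors made with GCOS 1.2, as named in the submitters' processing notes; how it was set is not stated there or in the labels. Every array has a 2% trimmed mean of 100.0, so the deposited intensity is scaled per array.

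Samples were grouped by their labels. The 57 Affymetrix control probe sets were left out, and 18625 probe sets above the 40th percentile of mean signal over the arrays of a fit were tested on log2(signal + 16) with limma 3.58.1 in R 4.3.3 (eBayes with trend and robust, Benjamini-Hochberg adjustment). SHR and WKY were fitted on 10 arrays and the Sprague Dawley groups in 1 model on 13. The pseudocount of 16 understates the change of dim probe sets. Fits were tested on simulated data with independent noise and with shifts larger than the Ldha difference. That test does not cover smaller shifts or variation shared between probe sets. The arrays give no read depth, and the number of arrays limits the precision.

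Of the other probe sets, 20826 had 1 platform symbol, 436 several and 9780 none. All member probe sets are accounted for. Other lists were read by the brightest single-symbol probe set of each gene, naming up to 4 passing genes per list and comparison, a fixed set of 11 pathway genes, and the 3 nearest genes of each member. Members and lists were chosen with earlier results of these data known. Alternatives changed the normalization, pseudocount, filter, moderation, array weights, covariates, arrays and replicate block. Deviations from the group means correlated weakly or not at all between samples with the same replicate number, so the numbers were not used as pairs.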

Additional observations from a re-analysis of the deposited data

Results flagged for a closer look

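In 7 of 75 sets of 4 or 5 arrays of 1 group and 1 member probe set, a single array stood apart from the rest of its group by Dixon's 95% criterion, and chance gives about 1 in 20. Ldha in control array 3 was 1872 against 2273 to 2306 on the other controls, and without that array dehydrated minus control was -0.60 (limma adjusted p = 0.00914). Tpi1 in control array 1 was 2016 against 2205 to 2240. Slc2a1 was high in SHR array 3, at 166.8 against 126.0 to 132.7, and in fasted array 4, at 168.1 against 136.9 to 144.8. The other 3 were dim hexokinase control probe sets annotated to Hk1. The 3' one read 12.8 in dehydrated array 2 against 20.4 to 21.1, and the middle one read 15.6 in WKY array 1 against 5.2 to 6.3 and 11.9 in control array 2 against 21.7 to 23.1.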

How the results depend on the processing

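Of 980 values of 39 differences named singly under alternative settings, 938 kept their sign and their side of the threshold, 26 lost the call, 4 gained it and 12 changed sign. The cause was not tested unless stated. Ldha in dehydrated against control animals kept its sign in all 25, and its adjusted p was 0.0581 (-0.52) without the filter, which tests more probe sets, 0.125 (-0.52) with eBayes without trend and robust, 0.0639 (-0.52) with the replicate block, 0.25 (-0.46) with control arrays 3 and 4 only, 0.854 (-0.27) with the fibroblast and meningeal marker mean as covariate, and 0.00914 to 0.114 (-0.60 to -0.49) with 1 array left out. With the fibroblast and meningeal marker mean as covariate the sign turned for Ldhb in SHR against WKY (0.054), fasted against control (0.081), dehydrated against control (0.13) and dehydrated against fasted (0.044), for Eno1 (0.045) and for Aldoc (0.026) in dehydrated against control. Ldhb also turned to 0.021 in fasted against control with quantile normalization, and in dehydrated against fasted to 0.0039 with array weights, 0.0055 with the choroid plexus marker mean and 0.033 without fasted array 1 or dehydrated array 1 (-0.077 to 0.033 with 1 array left out). Hk1 in dehydrated against control was -0.071 as a mean over its probe sets.

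Calls over all probe sets moved by more than 1.5 times as follows. SHR against WKY had 942 calls, 514 when tested per gene (fewer tests) and 191 with the fibroblast covariate. Fasted against control had 4, and 2 without the filter, 2 with plain eBayes, 8 with the beta-actin ratio, 0 with control arrays 3 and 4 only, 0 with the fibroblast covariate and 2 to 6 with 1 array left out (1340 had an unadjusted p under 0.05 in the reported fit). Dehydrated against control had 31, and 15 without the filter, 10 with plain eBayes, 15 with the replicate block, 74 with all 23 arrays in 1 model, 2 with control arrays 3 and 4 only, 20 with the choroid plexus covariate, 0 with the fibroblast covariate and 9 to 42 with 1 array left out. Dehydrated against fasted had 6, and 3 with plain eBayes, 1 with the replicate block, 2 with the Gapdh ratio, 2 per gene and 2 to 10 with 1 array left out. The replicate block was not taken as a pairing, since same-numbered arrays correlated at -0.167 to 0.273. The highest values were between SHR and WKY, at 0.158 for replicate 1 and 0.273 for replicate 2. So few arrays do not settle whether the numbers mark pairs. Pdk4 and Txnip in dehydrated against fasted animals were called without dehydrated array 4 (Pdk4, adjusted p = 0.0246), and with array weights (0.0344) or without fasted array 1 (0.0369) for Txnip. Txnip in SHR against WKY was called without WKY array 4 (0.025). Marker covariates and kept control probe sets were added after the data were seen. The nearest genes shared with quantile normalization were 9 of 27.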
